A study of Mus musculus with 2 samples.

Results

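Pax3, Pax7, Msx1, Msx2, Gsx1 and Gsx2 encode homeodomain transcription factors of dorsal neural tube progenitors, and the chromatin around these 6 genes was examined in cells sorted for a ventral identity. A consensus interval, that is a stretch of accessible chromatin, was given to a gene if the nearest protein-coding transcription start site (TSS) in the GENCODE annotation of mm10 was that of the gene. The rule used position only and gave 90 of 119502 intervals, 21 for Pax3, 27 for Pax7, 13 for Msx1, 15 for Msx2, 8 for Gsx1 and 6 for Gsx2. No interval was tied between genes. Of the 90, 6 overlapped the TSS of a member and are called TSS intervals, and the other 84 are called distal.

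The cells were neural progenitors (NPs) made from the mouse embryonic stem cell line Olig2-mKate2, in which the red fluorescent protein mKate2 reports the motor neuron progenitor gene Olig2. The cells were kept in 100 nM retinoic acid and 100 nM SAG, which activates Shh signalling, and collected at day 5 of differentiation. Live mKate2+ cells were sorted and 50000 cells per library were used for ATAC-seq, in which the Tn5 transposase cuts and tags open chromatin. There was 1 group of 2 replicates and no control group, so accessibility could not be compared between conditions. By the study's account, the reporter gate also takes in newly differentiated motor neurons and some cells that carry both OLIG2 and NKX2.2. The labels did not say whether the replicates were separate differentiations of the reporter line, so the spread between them may be technical.

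In the neural tube, BMP and Wnt ligands from the roof plate act on the dorsal progenitors and Shh from the notochord and floor plate on the ventral ones. Pax3 and Pax7 are paired-box factors of the dorsal neural tube and the neural crest, and Shh represses them in ventral cells. Msx1 and Msx2 are targets of BMP signalling in the most dorsal cells, including the roof plate. Gsx1 and Gsx2 mark progenitors of intermediate dorsal interneurons, and Gsx2 also patterns the ventral telencephalon.

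The 2 libraries held 31876165 and 31672240 counts in intervals. Fragments had no molecular identifiers, so confidence intervals cover counting error only. Genes were compared by density, the count divided by the DESeq2 size factor and by the interval length in kb, and values are given as mean ± SD with n = 2 libraries. The promoter of Olig2, the reporter gene, had a density of 946 ± 23.2. A TSS interval was present for 6 of 6 neural progenitor markers, with a median of 841, and 4 of 5 motor neuron markers, with a median of 557. The counts were 4 of 5 for neural crest, 2 of 5 for somite and muscle, 3 of 4 for fibroblast and 1 of 3 for pluripotent cells. The neural crest median was 217 by the gene record's 5′ end and 433 by all protein-coding transcripts. The median of the fibroblast list was 185, close to the 199.8 of the Gsx2 promoter. Pax6, the lowest of the neural progenitor markers, was at 187, so a density at this level did not separate the lists. For the somite and the pluripotent list the median was 0. Because the cells were assayed in bulk, fewer cells with an open site and less opening per cell cannot be told apart.

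For orientation, the central 300 bases of the distal interval with the highest mean density at each gene are shown first, from the mm10 genome sequence on the plus strand. Capitals mark matches to the searched motifs, which are described with their shares among all intervals further on. None of these windows overlapped an annotated untranslated region.
Pax3 intronic interval, chr1:78141822-78142121, plus strand: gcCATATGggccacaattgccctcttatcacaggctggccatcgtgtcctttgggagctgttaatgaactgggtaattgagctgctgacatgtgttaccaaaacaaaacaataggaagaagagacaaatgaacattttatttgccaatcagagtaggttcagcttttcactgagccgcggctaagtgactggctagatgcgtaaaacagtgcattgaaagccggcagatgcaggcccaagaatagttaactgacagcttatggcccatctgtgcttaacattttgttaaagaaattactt
Pax7 upstream interval, chr4:139836116-139836415, plus strand: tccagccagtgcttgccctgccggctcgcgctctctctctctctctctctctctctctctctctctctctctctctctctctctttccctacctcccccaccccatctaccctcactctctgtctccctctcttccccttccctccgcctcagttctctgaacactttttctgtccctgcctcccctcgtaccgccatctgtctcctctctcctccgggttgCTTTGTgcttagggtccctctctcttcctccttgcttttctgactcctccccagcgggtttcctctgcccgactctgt
Msx1 upstream interval, chr5:37851412-37851711, plus strand: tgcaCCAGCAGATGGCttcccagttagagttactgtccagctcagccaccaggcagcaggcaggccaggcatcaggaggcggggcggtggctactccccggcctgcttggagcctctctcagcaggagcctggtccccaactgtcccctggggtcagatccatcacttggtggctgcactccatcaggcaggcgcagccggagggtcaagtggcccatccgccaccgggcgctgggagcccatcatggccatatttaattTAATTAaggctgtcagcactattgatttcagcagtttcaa
Msx2 upstream interval, chr13:53475880-53476179, plus strand: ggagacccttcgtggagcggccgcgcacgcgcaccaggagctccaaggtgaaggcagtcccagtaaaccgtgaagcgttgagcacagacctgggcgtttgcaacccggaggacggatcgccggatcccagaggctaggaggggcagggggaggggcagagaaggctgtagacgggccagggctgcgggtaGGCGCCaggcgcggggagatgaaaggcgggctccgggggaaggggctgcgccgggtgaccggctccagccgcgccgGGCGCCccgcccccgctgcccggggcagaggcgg
Gsx1 upstream interval, chr5:147155509-147155808, plus strand: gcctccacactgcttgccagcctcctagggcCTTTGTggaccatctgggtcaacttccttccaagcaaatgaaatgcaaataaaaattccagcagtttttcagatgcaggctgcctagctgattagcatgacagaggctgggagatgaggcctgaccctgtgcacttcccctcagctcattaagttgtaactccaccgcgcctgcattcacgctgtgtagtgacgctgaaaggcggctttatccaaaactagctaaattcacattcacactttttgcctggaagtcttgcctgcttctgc
Gsx2 upstream interval, chr5:75071074-75071373, plus strand: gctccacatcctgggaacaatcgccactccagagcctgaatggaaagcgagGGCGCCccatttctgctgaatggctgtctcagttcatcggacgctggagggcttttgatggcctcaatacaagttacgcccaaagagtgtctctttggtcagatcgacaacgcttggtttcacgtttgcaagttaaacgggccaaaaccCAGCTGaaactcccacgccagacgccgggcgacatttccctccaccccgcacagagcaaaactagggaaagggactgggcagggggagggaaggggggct
The Pax7 window holds a long run of CT repeats, and 36.5% of the whole interval was soft-masked as repeat in the genome sequence, against 4.09% to 13.9% in the other 5. The Msx1 window holds a match to the CTCF core and a TAATTA, and the Msx2 window 2 copies of GGCGCC.

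All 6 genes had an accessible promoter. For comparison, 61.5% of the 21924 protein-coding genes had a TSS interval. By density the promoters fell into 2 levels, with Msx2 and Msx1 high and the Pax and Gsx genes low. Msx2 had 867 and 770 counts in its TSS interval of 902 bp, a density of 907 ± 76.6. Msx1 had 1207 and 1141 counts in 1487 bp, a density of 789.5 ± 31.8. These 2 BMP targets lay near the median of 883 for genes with a TSS interval, and among TSS intervals they ranked at percentiles 53.7 and 45.2.

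Pax3 had 789 and 785 counts in 2199 bp, a density of 358 ± 1.49. Gsx1 had 1157 and 1041 counts in 3415 bp, a density of 322 ± 24.2. Pax7 had 847 and 786 counts in 2851 bp, a density of 286 ± 15.3. All 3 lay between percentiles 13.7 and 17.6 of TSS intervals. Gsx2 was lowest, with 422 and 386 counts in 2022 bp, a density of 199.8 ± 12.7 at percentile 9.20.

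No neighbours in this order overlapped between libraries, but the gaps from Pax3 to Gsx1 and from Gsx1 to Pax7 were 1.11-fold and 1.12-fold, and the 4 low genes were separated from Msx1 by 2.21-fold. With 2 libraries of 1 group no test between genes was made. The median of the 6 promoters was 339.9 ± 12.8, below the median of 402 over all protein-coding genes, and 2 of 6 were above it. The rank depended on interval length. By counts per interval the order was Msx1 with 1174, Gsx1 with 1099, Msx2 with 819, Pax7 with 817, Pax3 with 787 and Gsx2 with 404 normalised counts. Among all protein-coding genes these counts ranked, in the same order, at percentiles 69.7, 67.7, 59.2, 59.1, 58.1 and 47.7. By counts, only Gsx2 was thus below the median gene, and the split of Msx2 and Msx1 from the other 4 was absent. Among the same genes, density ranked Msx2 and Msx1 at percentiles 70.3 and 65.1, and Pax3, Gsx1, Pax7 and Gsx2 at 48.5, 47.4, 46.3 and 43.7. Of these 21924 genes, 8441 had no TSS interval and a value of 0. The percentiles among TSS intervals given above leave such genes out and are not to be set beside these.

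**Figure D1:**
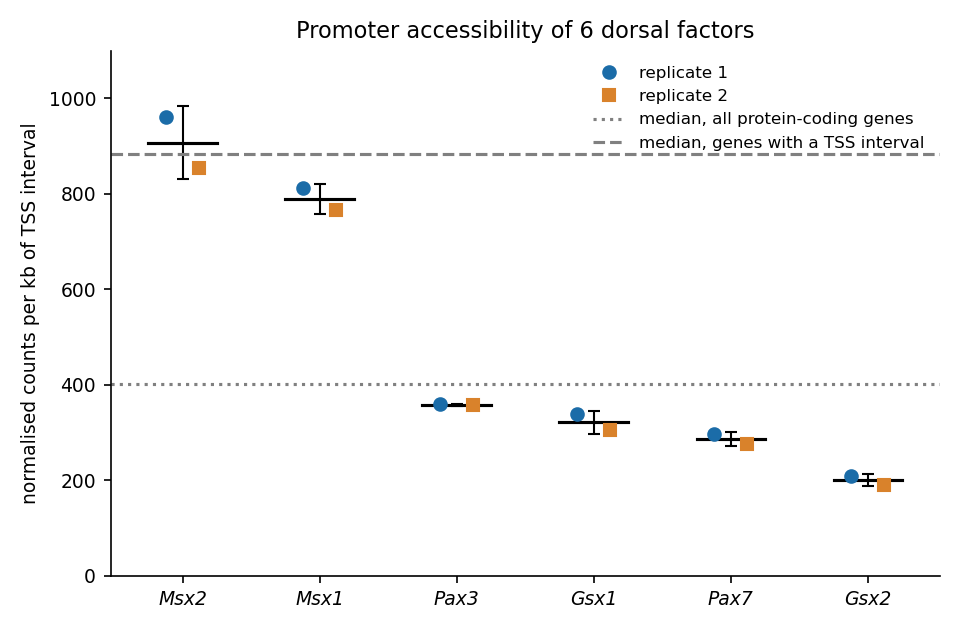
Promoter accessibility of each gene as normalised counts per kb of its TSS interval. Circles and squares are the 2 libraries, the thick line is the mean and the error bar the SD. The dotted line is the median of all protein-coding genes and the dashed line that of genes with a TSS interval. Msx2 and Msx1 lie well above the other 4 genes, which are all under the dotted line.

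The low densities at Pax3, Pax7, Gsx1 and Gsx2 went with broad intervals. Each of these 4 was longer than 2000 bp, as were 12.3% of all TSS intervals, and the median over the 6 genes was 2110.5 bp against 1229 bp. The limit of 2000 bp was chosen after the lengths were seen. The Gsx1 interval reached 2851 bp upstream and 563 bp downstream of the TSS, and that of Pax3 1480 bp upstream and 718 bp downstream. At Pax7, Gsx2 and Msx1 the interval lay mostly within the gene, with 1976, 1680 and 1146 bp downstream. The Msx2 interval reached 78 bp upstream only. The intervals were drawn over 5 libraries, 3 of which were not used here, so their width is not a property of these cells alone.

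The 250 bases before the TSS are shown for Msx1 and Msx2, the genes with the densest promoters, and for Gsx2, which has the least dense, on the strand of the gene. Capitals again mark motif matches.
Msx1 promoter, chr5:37824584-37824833, minus strand: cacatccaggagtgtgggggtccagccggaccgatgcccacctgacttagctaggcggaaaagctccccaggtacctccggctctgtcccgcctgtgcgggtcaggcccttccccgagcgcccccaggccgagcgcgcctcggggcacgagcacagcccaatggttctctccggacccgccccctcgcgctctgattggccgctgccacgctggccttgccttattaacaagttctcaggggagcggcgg
Msx2 promoter, chr13:53473075-53473324, minus strand: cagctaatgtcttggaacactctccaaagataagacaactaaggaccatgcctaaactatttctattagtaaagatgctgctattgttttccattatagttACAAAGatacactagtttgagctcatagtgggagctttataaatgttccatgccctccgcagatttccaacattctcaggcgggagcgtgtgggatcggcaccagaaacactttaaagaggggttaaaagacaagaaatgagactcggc
Gsx2 promoter, chr5:75075351-75075600, plus strand: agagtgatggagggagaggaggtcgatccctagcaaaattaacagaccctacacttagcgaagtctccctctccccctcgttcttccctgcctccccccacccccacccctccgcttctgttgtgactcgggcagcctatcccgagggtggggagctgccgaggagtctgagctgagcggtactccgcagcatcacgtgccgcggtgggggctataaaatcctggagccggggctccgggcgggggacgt
The Msx1 window was 68.4% GC with 21 CpG dinucleotides and the Gsx2 window 63.6% GC with 16, and all 250 bases of both lay in the TSS interval. The Msx2 window was 41.6% GC with 5 CpG dinucleotides, and 78 of its bases lay in the TSS interval. Over whole intervals, the GC content of the 6 TSS intervals had a median of 58.8% against 60.2% for all TSS intervals, and the observed to expected CpG ratio was 0.693 against 0.698. In these windows the density order was not the order of GC content, but most of the Msx2 window lay outside its TSS interval. Over whole TSS intervals, Msx1 (65.8%) and Msx2 (62.7%) had the highest GC content of the 6. Gsx2 followed with 59.2%, Pax7 with 58.4%, Gsx1 with 56.8% and Pax3 with 55.1%. The part of GC content in promoter density was not tested.

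The distal intervals of the 6 genes were denser than those of the genome. Their median density was 205 ± 5.23, against 126 ± 2.05 over 107284 distal intervals, and 64 of 84 were above the median of all. A mean normalised count over 100 was reached by 44 of 84 distal intervals (52.4%), against 32.4% of all distal intervals. With the TSS intervals the count was 50 of 90 (55.6%), against 38.8% of all intervals. The intervals near 7 ventral progenitor genes (Olig1, Olig2, Nkx6-1, Nkx6-2, Nkx2-2, Nkx2-9 and Foxa2) had a like distal median of 204 ± 2.41 over 128 intervals, of which 59.4% were over 100. The ventral genes had more very dense elements, since 39 of 128 (30.5%) were in the upper 10% of all distal intervals, against 14 of 84 (16.7%) for the dorsal genes. These are counts over intervals, which are not replicates, and no test was made on them.

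**Figure D2:**
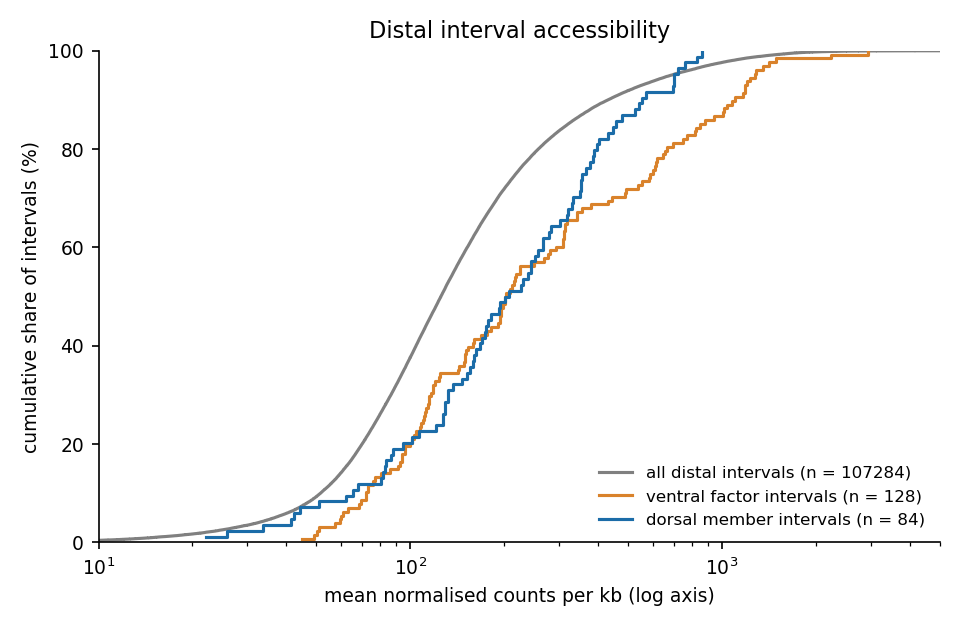
Cumulative share of distal intervals against their mean density in normalised counts per kb, on a log axis, for the 6 dorsal genes, 7 ventral genes and all distal intervals. The dorsal and ventral curves have like medians of 205 and 204 but differ on both sides of them. Of the dorsal intervals 76.2% lie above the median of all distal intervals, against 65.6% of the ventral ones. At the upper end the dorsal curve stops at 861 and the ventral one goes on.

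The share over 100 was above that of all distal intervals up to 100 kb from the TSS. Within 10 kb of the TSS, 16 of 18 distal intervals (88.9%) were over 100 counts, against 43.7% of all distal intervals at that distance, with a median density of 353 against 159. Between 10 and 100 kb, 25 of 55 (45.5%) were over 100 against 31.0%, with a median of 177 against 121. Beyond 100 kb, 3 of 11 (27.3%) were over 100 against 28.8%, with a median of 129.6 against 120.1. The 11 remote intervals belonged to Pax3 (5) and Msx2 (6), the genes with the widest stretches nearest to their TSS (398 and 339 kb).

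Pax3 and Pax7 are long genes with accessible introns. Of 20 distal intervals at Pax3, 12 were in its introns and 8 outside the gene, and of 26 at Pax7, 16 were in introns and 10 outside. The gene covered 24.1% of the stretch nearest to its TSS at Pax3, where it held 60% of the distal intervals, and 57.2% at Pax7, where it held 61.5%. The densest at Pax3 was intronic, 54.9 kb downstream of the TSS, with 446 and 384 counts in 591 bp and a density of 702 ± 74.6, which is 1 of 7 distal intervals denser than the Pax3 promoter. Others of this kind were 28.8 kb downstream (579 and 525 counts, density 553) and 86.3 kb downstream (268 and 256 counts, density 540). The element with most counts was upstream, 18.7 kb away, 2556 bp long and with 1056 and 1011 counts, more than the promoter itself in both libraries.

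At Pax7 a block of intronic intervals lay 11.3 to 29.2 kb downstream. Its 4 densest members had 759 and 707, 658 and 645, 469 and 457, and 326 and 329 counts, with densities of 701, 699, 446 and 725. All 4 were above the promoter (286) in both libraries, and the SD between libraries was 4.27 to 35.6. The densest interval of the gene, shown above, lay 2.45 kb upstream with 511 and 474 counts and a density of 861 ± 46.2. In all, 8 of 26 distal intervals were denser than the promoter. From 61.6 kb into the gene onward, 5 intervals had densities of 44.2 to 177. Pax7 had 17.2 intervals per 100 kb of the stretch nearest to its TSS, against 6.03 for the median gene and 5.28 at Pax3.

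**Figure D3:**
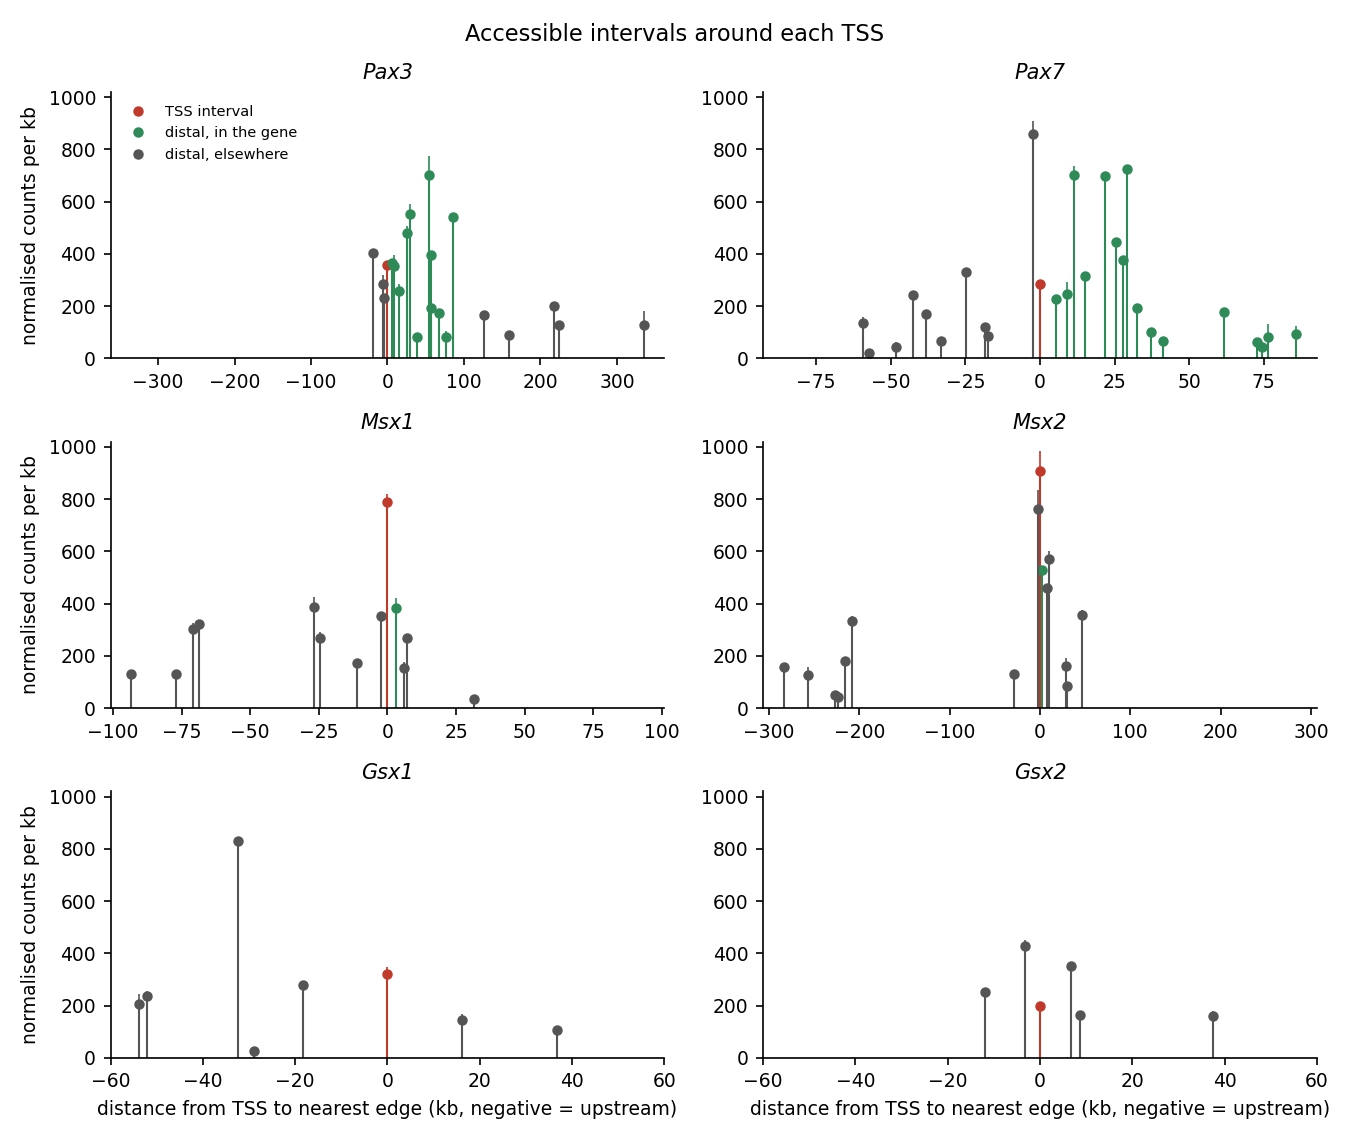
Density of every interval (normalised counts per kb, mean of 2 libraries, error bar SD) against the distance of its nearest edge from the TSS in kb, upstream negative, in 1 panel per gene with its own distance axis. Red is the TSS interval, green a distal interval overlapping the gene and grey any other. Tall green stems at Pax3 and Pax7 stand above the red one, whereas at Msx1 and Msx2 the red stem is highest.

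By density, 0 of 12 distal intervals at Msx1 and 0 of 14 at Msx2 exceeded the promoter, against 7 of 20 at Pax3 and 8 of 26 at Pax7. By counts per interval this contrast was absent, since 1 distal interval at Pax3, 0 at Pax7, 0 at Msx1 and 1 at Msx2 had more counts than the promoter. The densest at Msx1 lay 26.6 kb upstream, with 284 and 247 counts in 685 bp and a density of 388 ± 38.4. It was close in density to an interval over a coding exon of Msx1, 2.95 kb downstream of the TSS, with 199 and 174 counts and a density of 385. The TSS interval held 37.8% of the counts at Msx1. At Msx2 the densest was 2.58 kb upstream, with 616 and 539 counts in 758 bp and a density of 762 ± 72.3. An interval 9.70 kb downstream, beyond the 3′ end of the gene, had more counts than the promoter (912 and 841) and a density of 569.5. Both are within 10 kb, and the 6 intervals beyond 100 kb from Msx2 had densities of 41.3 to 333.

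Gsx1 and Gsx2 had the fewest intervals of the 6 genes, 8 and 6, though the median over all protein-coding genes was 3. None of their distal intervals lay within the gene. At Gsx1, 7 distal intervals lay 16.2 to 53.9 kb away, and the one 32.4 kb upstream stood out with 1104 and 1131 counts in 1347 bp and a density of 829.6 ± 13.7. It was 2.58 times as dense as the Gsx1 promoter and the next densest had 279. At Gsx2 the densest lay 3.34 kb upstream, with 917 and 859 counts in 2068 bp and a density of 429 ± 20.1. Another, 6.72 kb downstream, had 491 and 495 counts and a density of 349.9, and that 12.01 kb upstream had 101 and 106 counts and a density of 251. These 3 of 5 were denser than the promoter, which held 18.8% of the counts at the gene. Over the 6 genes, 19 of 84 distal intervals were denser than the promoter of their own gene, and 5 of 84 had more counts than it.

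By position, 43 of 84 distal intervals were intergenic, 35 intronic, 5 over exons of noncoding genes and 1 over a coding exon, and 36 were upstream and 48 downstream. Nearness to a TSS does not show that an interval acts on that gene. Where genes of every biotype could take an interval, 60 of 90 were left, with 5 of 15 at Msx2, 8 of 13 at Msx1 and 4 of 8 at Gsx1, and the others were nearer to the start of a noncoding gene or pseudogene.

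The sequences of the distal intervals were richer in GC and CpG than those of other distal intervals. The median GC content was 53.0% against 48.6%, and the observed to expected CpG ratio 0.324 against 0.211. Motifs were searched on both strands in the 300 bases around the centre of each interval, by exact letters. At intervals shorter than this, down to 162 bp, the window took in bases outside the interval. GGCGCC, a GC-rich SMAD motif, was in 11 of 84 distal windows (13.1%) against 3.37% of all distal windows. The homeodomain core TAATTA was in 12 (14.3%) against 7.64%, 5 of all 12 windows being at Pax3. The E-box CAGCTG was in 26 (31.0%) against 22.8%.

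Of the SOX motifs, ACAAAG was in fewer windows than elsewhere, 16 of 84 (19.0%) against 33.5%, and ACAATG was in 18 (21.4%) against 23.2%. The E-box CATATG was in 4 (4.76%) against 5.56%, the LEF/TCF motif CTTTGAT in 4 (4.76%) against 4.64%, and the CTCF core CCANNAGNNGGC in 5 (5.95%) against 6.09%. The GLI motif GACCACCCA was in 0 of 84, against 0.494% of all distal windows, and the direct repeats AGGTCANNAGGTCA and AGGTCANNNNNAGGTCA were in 0 of 84, against 0.0615% and 0.0764%. In the 6 TSS windows, CAGCTG and ACAATG were in 1 window each, against 16.4% and 5.30% of all TSS windows. GGCGCC was in 0 of the 6, against 27.3% of all TSS windows. The part of GC content in these shares was not tested.

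**Figure D4:**
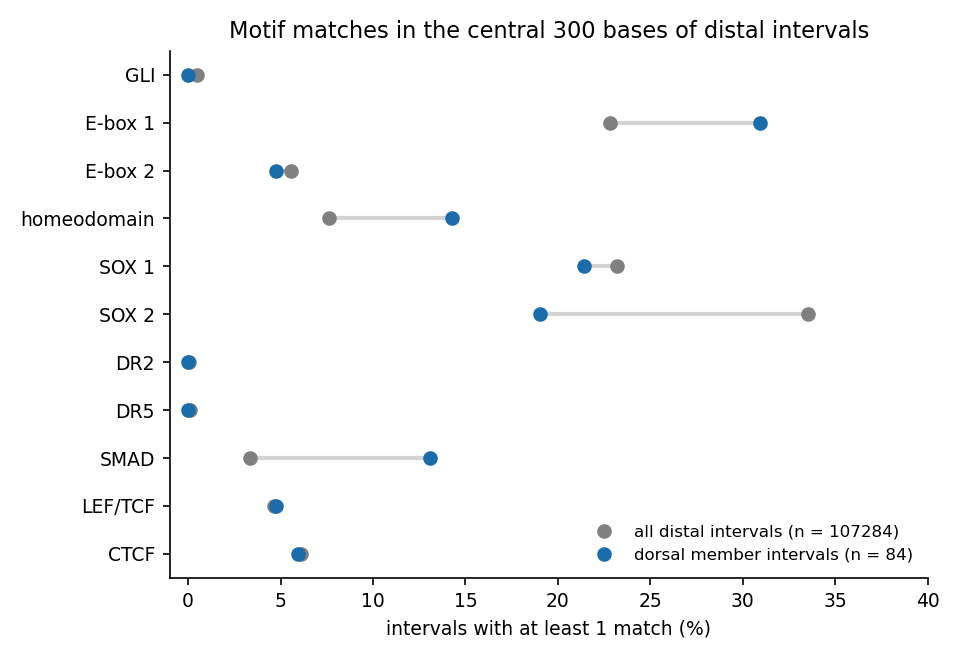
Share of distal intervals with at least 1 exact match to each motif in the 300 bases around their centre, for the 84 intervals of the dorsal genes and for all distal intervals. E-box 1 is CAGCTG, E-box 2 CATATG, SOX 1 ACAATG and SOX 2 ACAAAG. The widest gaps are at SOX 2, where the dorsal share is lower, and at SMAD, where it is higher.

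No difference between the libraries passed the test at the 90 intervals. A two-sided exact binomial test with Benjamini-Hochberg adjustment over all 119502 intervals called 0 of 90 at a limit of 0.01, as it did for 0% of all intervals, and the lowest adjusted p among the 90 in this exact test was 0.382. Before adjustment, the exact test gave a p under 0.05 at 7 of 90 (7.78%), against 10029 (8.39%) of all. The largest fold between libraries among the 50 intervals over 100 counts was 1.31, at an intron of Pax7 (chr4:139823599-139824423) with 229 and 175 counts. It was followed by an interval 5.90 kb upstream of Pax3 (chr1:78203031-78204177), with 354 and 297 counts, and by a Pax3 intron (chr1:78187573-78187975), with 154 and 130.

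The small differences mostly shared a direction, with replicate 1 higher at 60 of 90 intervals (66.7%) against 50.0% of all. Replicate 1 was higher at 6 of 6 TSS intervals, against 68.3% of all TSS intervals, and at 54 of 84 distal ones (64.3%), against 47.9%. Summed over a gene, replicate 2 was 0.935 to 0.968 times replicate 1 at all 6, and replicate 1 was higher at 56.7% of 5622 genes with at least as many counts. The 90 intervals held 0.0729% of the counts of replicate 1 (95% Wilson interval 0.0720% to 0.0739%) and 0.0699% of those of replicate 2 (0.0689% to 0.0708%). Over all intervals this direction moved with GC content, with replicate 1 higher at 57.1% of those in the highest of 4 equal classes of GC content and at 46.7% in the lowest. At the members replicate 1 was higher, from the lowest class to the highest, at 9 of 11, 5 of 11, 15 of 27 and 31 of 41. Over all intervals the middle classes stood at 47.6% and 48.6%. The part of GC content was not tested.

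**Figure D5:**
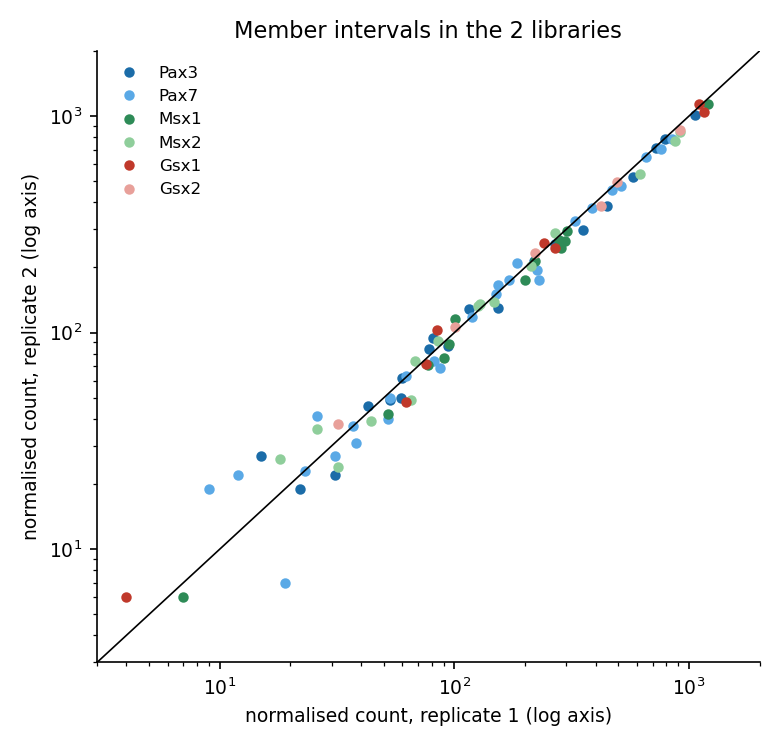
Normalised counts of the 90 intervals in the 2 libraries, both on log axes, coloured by gene, with the line of equal counts. Points follow the line from about 5 to over 1000 counts, and among intervals over 100 counts none is more than 1.31-fold from it.

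Most other genes of the dorsal pathway also had a TSS interval. Of 27 other genes of dorsal patterning, 25 had one, with a median promoter density of 587, and Bmp4 and Dbx2 had none. Over all protein-coding genes 61.5% had one and the median was 402, and genes with a TSS interval had a median of 883. The mediators of BMP signalling Smad1, Smad5, Id1, Id2 and Id3 had a TSS interval in 5 of 5 cases and a median of 1111. Among roof plate genes and dorsal ligands 7 of 8 had one, with a median of 356, and among dorsal and intermediate progenitor factors 13 of 14, with a median of 593. Genes of dorsal interneurons had one in 9 of 10 cases, with a median of 458, and ventral progenitor genes in 6 of 7, with a median of 760. By the 5′ ends of all protein-coding transcripts the ventral value was 7 of 7 with a median of 879. Other values rose as well by that definition. Over all protein-coding genes, 14620 of 21924 had a TSS interval and the median was 485. The 27 other dorsal patterning genes had a median of 595 and the dorsal interneuron genes 483. The lowest of these list medians was thus close to that of the 6 members, and the BMP mediators were highest.

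The listed genes with a promoter density most like that of each member, out of 44, were found by the difference in log2(density + 1) over the 2 libraries. For Pax3 they were Foxd3 (379) and Gdf7 (380.2), and for Pax7 Ptf1a (284) and Lhx9 (317). For Msx1 they were Olig1 (760.4) and Pax2 (736), and for Msx2 Smad5 (894) and Nkx2-9 (942). For Gsx1 they were Lhx9 (317) and Lmx1b (332), and for Gsx2 Wnt1 (212) and Pax6 (187). Each pair of genes differed from its member by at most 0.15 on the log2 scale. Msx3, the other mouse Msx gene, which is expressed in the dorsal neural tube, had a promoter density of 388 ± 9.0, between those of Msx1 and Pax3.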

How the data were processed

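ATAC-seq was performed on 2 replicate libraries of 1 group. The authors deposited raw fragment counts per consensus interval. Per the file headers, featureCounts 2.0.1 counted read pairs, and a fragment could enter more than 1 interval. Reads were aligned to mm10 and peaks were called with MACS in the nf-core atacseq pipeline, and DESeq2 is named in the submitters' processing notes without a version. The table held 5 libraries, which all helped to define the intervals. The other 3 columns belonged to no sample used here.

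Size factors from DESeq2 1.42.0 scaled the counts, and a density was the scaled count over the interval length in kb. Genes were taken from GENCODE vM21 (mm10), with the TSS at the 5′ end of the gene record and the distance measured from the nearest edge of the interval. Sequences came from GRCm38.p6, the same assembly. The limit of 100 normalised counts follows the study. Libraries were compared with a two-sided exact binomial test (scipy 1.17.1) and Benjamini-Hochberg adjustment over 119502 intervals, at a limit of 0.01. On simulated data it recovered 188 of 200 intervals changed by 2-fold (94.0%), with 0 false calls among 119502. The simulated counts had Poisson counting error only, and the 200 intervals were drawn from those with a mean over 100. The recovery thus does not hold for weaker intervals, and the simulation had no variation between replicates. edgeR 4.0.16 gave TMM factors as an alternative. The intervals named by rule were the TSS interval and the densest distal interval of each gene and the 3 that differed most between libraries among those over 100 counts. Any other interval named singly was picked with its value already in view. The genes, lists and motifs were chosen with earlier results of these data known.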

Additional observations from a re-analysis of the deposited data

How the results depend on the processing

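The median promoter density of 339.9 became 821 when counts per interval were used in place of density, and the median distal density of 205 became 112. These are other units. With intervals under 10 normalised counts left out, the median distal density was 217, and 88 of the 90 intervals were kept. With replicate 1 or replicate 2 left out, the median promoter density was 331 to 349, the median distal density 202 to 209, and the number of intervals over 100 was 50 to 51. TMM factors, total counts, the 5′ ends of all protein-coding transcripts and distances from the midpoint kept these results within the spread of the libraries wherever they were run, and the number of intervals called different between libraries was 0 with TMM factors, with total counts and with the filter on low counts. Of 84 values for single genes under alternatives other than leaving out a library, 69 were within the spread of the libraries or within 1.5 times the count, and 15 were not, of which 3 are the interval counts of Msx1, Msx2 and Gsx1 given above with genes of every biotype. No paired analysis was possible because both libraries belonged to the same group. With 2 libraries, an SD has 1 degree of freedom, and intervals at the lower end, such as 4 and 6 counts, carry a large counting error.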

Other observations

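Several noncoding genes and pseudogenes lie in the stretches nearest to the members, and 30 of the 90 intervals were closer to the start of such a gene than to that of the member. Near Msx2, 5 intervals were closest to the lincRNA gene Gm34278, 3 to Gm43262 and 1 to Gm48548. Of these, 4 intervals from 208 to 227 kb upstream of Msx2 overlapped Gm34278, 3 over exons and 1 in an intron. The densest had 267 and 289 counts and a density of 333 normalised counts per kb, and the least dense had 18 and 26 counts and a density of 41.3. Near Msx1, 4 were closest to the lincRNA gene Gm20052, and of the 2 that overlapped it 1 had 303 and 294 counts and the other 297 and 266. Near Pax3, 4 were closest to the lincRNA gene Gm28387, and near Pax7, 5 to Gm1667. These assignments were not weighed against each other.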
